A study of Homo sapiens with 12 samples.

Results

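The genes described here encode abundant parts of the actin and microtubule cytoskeleton: the actins ACTB and ACTG1, the actin-binding proteins TMSB4X, PFN1 and CFL1, the alpha-tubulins TUBA1A, TUBA1B and TUBA1C, and the beta-tubulin TUBB. They were chosen by name as abundant cytoskeleton genes, with earlier results of these data known, and are 9 of 23619 genes in the table. All 9 were among the 11381 genes that averaged at least 1 FPKM (fragments per kilobase of transcript, by definition scaled to the fragments mapped in a library) and were tested. The deposited FPKM were not on that scale alone. Gene medians fell in treated libraries while those of added spike-in RNAs stayed level, as given below. The RNA came from MOLT4, an established line from a human T-cell leukemia of the acute lymphoblastic kind, and was sequenced after poly(A) selection. Cells of all groups were kept for 6 h in the vehicle, 0.1% DMSO, or in 250 nM of one of the compounds SNS-032, NVP-2 and THAL-SNS-032, with 3 libraries in each of the 4 groups. SNS-032 inhibits several cyclin-dependent kinases including CDK9, NVP-2 is an inhibitor of CDK9, and THAL-SNS-032 carries the SNS-032 structure joined by a linker to a cereblon-binding group so that CDK9 is degraded. MOLT4 is a single line, and the labels name no separate cultures within a group, so every p-value reflects the spread among these libraries, which may be technical.

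Actin monomers assemble into filaments that carry cell shape, movement and contraction. Thymosin beta-4 (TMSB4X) holds monomers in reserve, profilin (PFN1) feeds them to growing ends and cofilin (CFL1) severs and disassembles filaments. Microtubules are built from pairs of 1 alpha- and 1 beta-tubulin, form the mitotic spindle and serve as tracks for transport. In T cells both systems organise the contact with an antigen-presenting cell. CDK9 is the kinase of the elongation factor P-TEFb, which releases paused RNA polymerase II, so its inhibition acts on transcription broadly.

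Sequence decides how far the values of these relatives can be told apart, so the coding sequences of the principal GENCODE 29 transcripts were compared first. TUBA1A and TUBA1B shared 97.2% of bases, with an identical run of 221, and 46.6% of the 50-base windows of TUBA1A also occurred in TUBA1B. TUBA1B and TUBA1C were nearly as alike, with 96.8% of bases, an identical run of 326 and 44.9% of windows. ACTB and ACTG1 shared 91.2% of bases but only 0.927% of such windows, and TUBB shared 84.4% of bases and no window with its relative TUBB4B. How reads that match several genes were counted is not given in the sources used here, so the split of reads among the 3 alpha-tubulins is uncertain, as is any share with pseudogenes.

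RefSeq promoter windows (GRCh38.p14, 250 bases before to 50 after the start) were matched by symbol for 8 of the 9 genes; ACTB was not matched. The stretch of 130 bases before the start is shown for ACTG1, which had the most negative difference from DMSO with every compound, and for TMSB4X and CFL1, which had the least negative, with matched motifs in capitals.
ACTG1 (chr17:81512800-81512929, minus strand): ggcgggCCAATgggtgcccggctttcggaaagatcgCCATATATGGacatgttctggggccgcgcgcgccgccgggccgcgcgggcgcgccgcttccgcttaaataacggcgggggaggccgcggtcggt
TMSB4X (chrX:12974980-12975109, plus strand): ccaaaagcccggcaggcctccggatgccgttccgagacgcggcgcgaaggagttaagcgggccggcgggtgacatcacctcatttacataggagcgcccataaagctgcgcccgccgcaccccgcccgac
CFL1 (chr11:65858181-65858310, minus strand): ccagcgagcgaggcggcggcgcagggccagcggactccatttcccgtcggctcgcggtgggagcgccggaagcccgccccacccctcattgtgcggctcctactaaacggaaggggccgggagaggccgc
The motifs searched on both strands were the CArG box, the site bound by serum response factor, and the letters TATAAA and CCAAT; none of the matches overlapped. In the ACTG1 window a CArG box began 94 bases before the start, and no window of the other 7 matched genes held one, against 1.29% of 35116 windows in the table. TATAAA was in none of the windows of the 8 genes, against 11.5% of all windows. CCAAT, held by 34.6% of all windows, occurred in windows of ACTG1, CFL1, TUBA1A, TUBA1C and TUBB. These matches are descriptions of letters and not of bound sites.

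The identity of the cells and the scale of the values bear on everything below. All 14 T-lineage marker genes in the table, of 15 listed, reached 1 FPKM in DMSO, with summed levels of 4933 to 6109 FPKM in DMSO and 864 to 1947 in treated libraries. The B-cell genes CD79A and CD79B were at 9.07 and 2.33 FPKM in DMSO. All 5 myeloid markers were below 1 FPKM in DMSO, with a summed level of 0.933 to 1.09 FPKM there and 0.604 to 5.44 in treated libraries. All 5 fibroblast and muscle markers were below it as well, with a sum of 1.81 to 1.92 FPKM in DMSO and 0.589 to 5.58 in treated libraries. ACTA2, a muscle actin, averaged 0.956 FPKM in DMSO and 4.16 with SNS-032. The part of these genes in the results was not tested. The medians of the spike-in RNAs (ERCC) lay within -0.031 to 0.039 log2 of the DMSO mean in all 12 libraries, while the medians of the tested genes lay between -3.05 and -1.87 log2 from it in the treated libraries. SNS-032 replicate 1 stood apart, with a median of -2.61 against -1.87 and -2.03 in the other SNS-032 libraries. The table holds no counts, so depth is unknown. In bulk RNA, fewer cells and less RNA per cell cannot be told apart.

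In vehicle-treated cells all 9 transcripts were abundant. TMSB4X ranked 7 among the tested genes in DMSO with 9510 ± 886 FPKM (SD, n = 3), ACTG1 ranked 20 with 6965 ± 882 and TUBA1B ranked 40 with 5109 ± 677. TUBB, ACTB, TUBA1C and CFL1 followed between 3319 and 2400 FPKM, and PFN1 and TUBA1A lay at 1361 ± 214 and 1315 ± 134. These levels are per kilobase and can be compared between genes, but neighbours in this order from TUBB to ACTB, from TUBA1C to CFL1 and from PFN1 to TUBA1A differed by less than their SD. Together the 9 genes held 1.09% ± 0.080 of the summed FPKM in DMSO, 1.11% ± 0.038 with SNS-032, 1.15% ± 0.043 for THAL-SNS-032 and 1.23% ± 0.048 for NVP-2. This share overlapped the DMSO range with SNS-032 and THAL-SNS-032 and lay above it in all 3 NVP-2 libraries, while the summed level of the 9 genes went from 35684 FPKM in DMSO to 12761, 15195 and 7899.

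**Figure D1:**
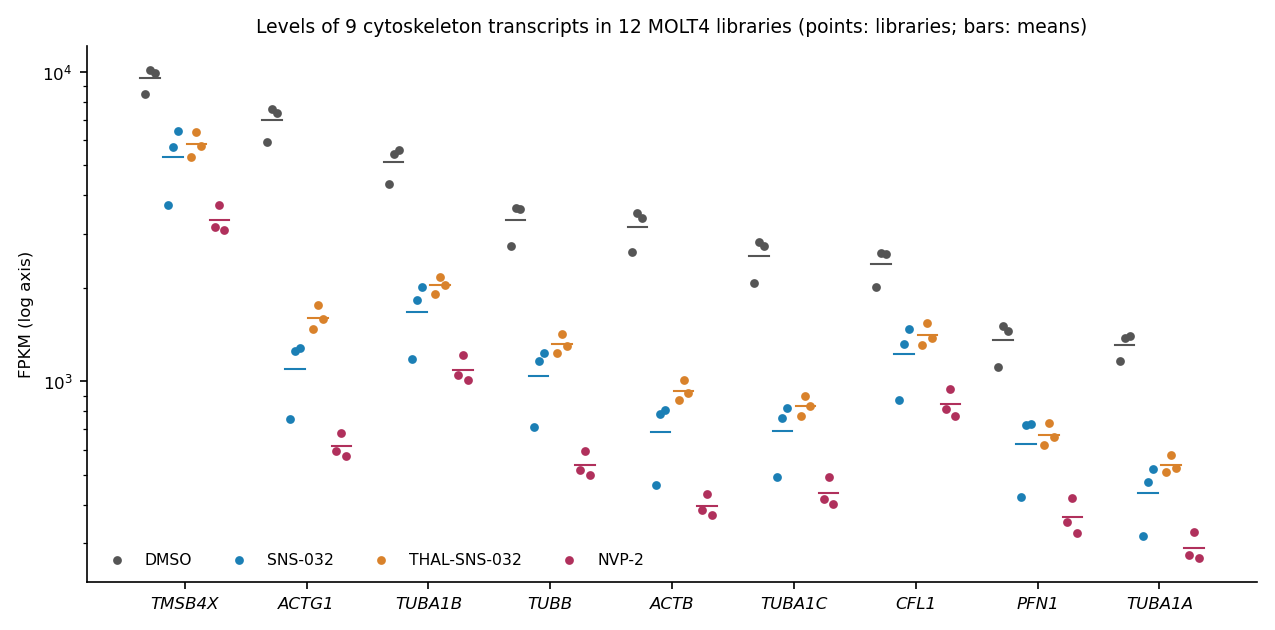
FPKM on a log axis of the 9 transcripts in each of the 12 libraries, in order of their DMSO mean; points are libraries and bars are group means. Every treated library lies below all 3 DMSO libraries for every gene on the deposited scale, which centring each library on its median turns for most genes, and the lowest SNS-032 point of each gene is replicate 1.

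The comparisons with DMSO asked how each compound changed these transcripts, and they share the same 3 DMSO libraries. On the deposited scale all 9 transcripts fell with each compound in limma fits over all tested genes. No treated library overlapped a DMSO library for any of the 9, but the share of all tested genes without overlap is not given here. Relative to the median of each library 7, 8 and 7 of the 9 were called higher (SNS-032, then THAL-SNS-032, then NVP-2). Of all 11381 tested genes 5989, 6515 and 6789 were called higher there, and their median differences were 0.25, 0.36 and 0.42. The largest Benjamini-Hochberg adjusted p of limma among the 9 was 0.000441 with SNS-032, 0.0026 for THAL-SNS-032 and 2.89e-06 for NVP-2. Among all tested genes 94.6% were called lower with SNS-032, 94.8% for THAL-SNS-032 and 97.1% for NVP-2, so a fall of all 9 is near the background. The size of the falls separated the genes. Differences in mean log2(FPKM + 1) ran from -2.70 to -0.88 with SNS-032, from -2.11 to -0.71 for THAL-SNS-032 and from -3.49 to -1.50 for NVP-2. The medians of the 9 were -1.64, -1.31 and -2.22, against -1.92, -1.90 and -2.54 for all tested genes and -1.17, -0.97 and -1.97 for the 202 genes of 1000 FPKM or more in DMSO. At their median the 9 genes thus lay nearer to 0 than all tested genes and further from 0 than the most abundant genes, with every compound.

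The actins had the most negative differences of the set. ACTG1, cytoplasmic gamma-actin, stood at 5952, 7566 and 7376 FPKM in the DMSO libraries, at 755, 1258 and 1283 with SNS-032, at 1474, 1760 and 1589 with THAL-SNS-032 and at 597, 683 and 574 with NVP-2. The highest treated library was far below the lowest DMSO library, and the 3 NVP-2 libraries were below all others. Its mean was 15.8%, 23.1% and 8.87% of that in DMSO, and the differences were -2.70, -2.11 and -3.49 (SE 0.20; limma adjusted p 6.09e-09, 9.3e-08 and 1.94e-10). ACTB, cytoplasmic beta-actin, whose transcript is often used as a loading reference, stood at 2626, 3489 and 3367 FPKM in DMSO, at 462, 784 and 811 with SNS-032, at 870, 1014 and 917 with THAL-SNS-032 and at 383, 434 and 371 with NVP-2. The groups with THAL-SNS-032 and NVP-2 were tight, and the SNS-032 group was spread by its first replicate. The ACTB differences were -2.24, -1.75 and -2.99 (SE 0.21). Relative to library medians ACTG1 was still lower with SNS-032 (-0.52, limma adjusted p = 0.000125) and NVP-2 (-0.53, adjusted p = 0.000103), but not with THAL-SNS-032 (0.15, adjusted p = 0.127). On that scale ACTB was at -0.06, 0.51 and -0.03, of which the value with THAL-SNS-032 passed the test.

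The actin-binding proteins had the least negative differences. TMSB4X stood at 8497, 10138 and 9896 FPKM in DMSO, at 3723, 5701 and 6434 with SNS-032, at 5322, 6398 and 5772 with THAL-SNS-032 and at 3163, 3710 and 3086 with NVP-2. No treated library reached the DMSO range, and SNS-032 replicate 1 lay close to the NVP-2 libraries, apart from the other SNS-032 libraries. The TMSB4X differences were -0.88, -0.71 and -1.52 (SE 0.19), which left 55.6%, 61.3% and 34.9% of the DMSO mean. CFL1 went from 2400 ± 334 FPKM in DMSO to 1222 ± 314, 1410 ± 120 and 845 ± 90.3, with differences of -0.998, -0.76 and -1.50 (SE 0.20). PFN1 went from 1361 ± 214 FPKM to 627 ± 175, 671 ± 56.1 and 366 ± 49.0, with differences of -1.15, -1.01 and -1.89 (SE 0.22). The direction of these 3 depends on the scale: relative to library medians TMSB4X, CFL1 and PFN1 were higher with every compound, by 1.02 to 1.55 log2, and each passed the limma test there.

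The alpha-tubulins fell by amounts between those of the actins and the actin-binding proteins. TUBA1B, the most abundant alpha-tubulin transcript here, stood at 4333, 5422 and 5573 FPKM in DMSO, at 1186, 1828 and 2012 with SNS-032, at 1909, 2177 and 2050 with THAL-SNS-032 and at 1048, 1219 and 1007 with NVP-2. One SNS-032 library lay within the NVP-2 range, so these groups overlapped, while the DMSO libraries stood clear of all others. Its differences were -1.64, -1.31 and -2.22 (SE 0.20). TUBA1A, with 1315 ± 134 FPKM in DMSO, was at 437 ± 107, 538 ± 36.1 and 290 ± 31.8 with differences of -1.61, -1.28 and -2.17 (SE 0.19). TUBA1C, with 2546 ± 403 FPKM in DMSO, was at 691 ± 177, 836 ± 61.1 and 436 ± 47.3 with differences of -1.90, -1.60 and -2.54 (SE 0.20). The values of TUBA1A and TUBA1B ran nearly in parallel: their deviations from their own DMSO means had a root mean square difference of 0.040 log2 over the 12 libraries, the smallest of the 36 pairs within the set, against 0.25 for TUBA1B with TUBA1C. The first pair shares 46.6% of 50-base coding windows and the second 44.9%. The part of shared reads in these values was not tested. Relative to library medians all 3 alpha-tubulins were higher with every compound, by 0.27 to 0.97 log2. The median differences of all tested genes were 0.25, 0.36 and 0.42 there. TUBA1C, at 0.27, 0.66 and 0.42, lay close to them with SNS-032 and NVP-2.

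TUBB, the main beta-tubulin transcript in these cells, stood at 2731, 3626 and 3598 FPKM in DMSO, at 713, 1168 and 1232 with SNS-032, at 1238, 1425 and 1305 with THAL-SNS-032 and at 516, 594 and 500 with NVP-2. All 3 NVP-2 libraries were below every other library, and all 3 THAL-SNS-032 libraries were above every SNS-032 library. The TUBB differences from DMSO were -1.71, -1.32 and -2.62 (SE 0.21). Relative to library medians they turned to 0.47, 0.94 and 0.34, where the median difference of all tested genes was 0.25, 0.36 and 0.42. With NVP-2 TUBB thus lay below that median. Another beta-tubulin gene, TUBB4B, was at 432 ± 66.3 FPKM in DMSO and at 31.0 ± 9.28, 36.1 ± 2.48 and 12.6 ± 1.91 with the compounds. As a percentage of TUBB in the same library it was 13.0 ± 0.18 in DMSO and 2.97 ± 0.25, 2.73 ± 0.059 and 2.35 ± 0.14 in treated cells; this share was computed after the values were seen. Within the library, TUBB4B was thus lower relative to TUBB in all 9 treated libraries than in any DMSO library.

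**Figure D2:**
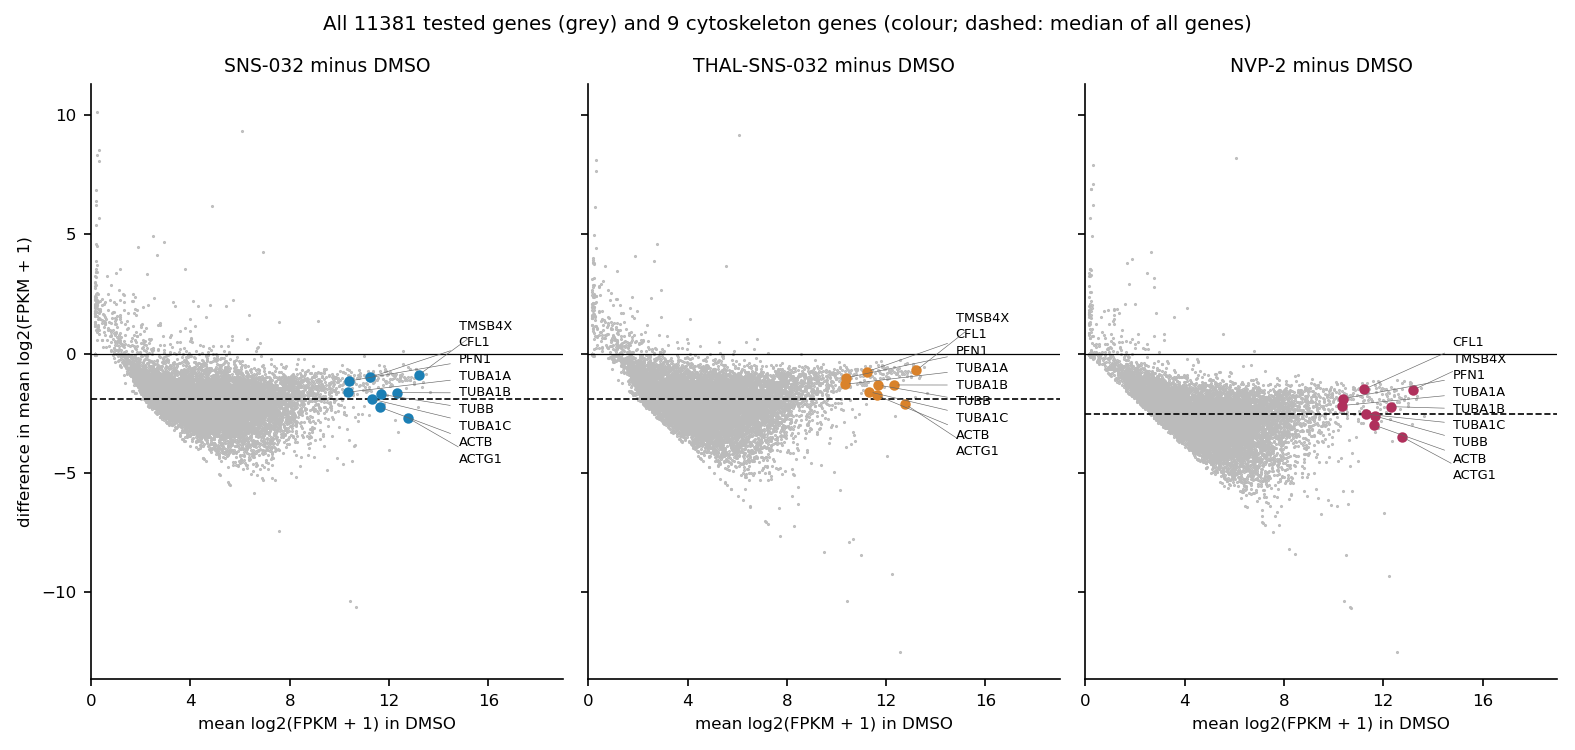
Difference in mean log2(FPKM + 1) from DMSO against the DMSO mean on the same scale for the 11381 tested genes (grey) and the 9 cytoskeleton genes (coloured and named), for each compound; the dashed line is the median of all genes. The 9 genes sit at the right, among the most abundant, with ACTG1 lowest and TMSB4X and CFL1 highest in each panel. Values between the dashed line and 0 are lower than in DMSO on the deposited scale and turn higher when libraries are centred on their medians. Some values just below the line turn as well, such as TUBB with NVP-2 (to 0.34) and ACTG1 with THAL-SNS-032 (to 0.15).

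Placed among all tested genes, the set spanned much of the range. With NVP-2, 18.3% of tested genes had a more negative difference than ACTG1 and 32.6% a more negative one than ACTB, whereas 87.6% had a more negative one than CFL1. TUBA1C lay at the middle, with 50.1% of genes below it, and TUBB at 46.5%. Among the 202 most abundant genes, 28 had a more negative difference than ACTG1 with NVP-2 and 163 a more negative one than CFL1. With SNS-032, 18.2% of tested genes lay below ACTG1 and 89.9% below TMSB4X. With THAL-SNS-032 ACTG1 lay nearer the middle, with 40.8% of genes below it, and TMSB4X had 91.9% below it.

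The compounds were compared in 3 pairs at the same dose and time, with p-values adjusted over all tested genes within a pair. The structural difference in the first pair is the cereblon-binding group that THAL-SNS-032 adds to SNS-032. Between them 1 of the 9 genes was called: ACTG1 was 0.59 log2 higher with THAL-SNS-032 (SE 0.20, 95% interval 0.15 to 1.02, limma adjusted p = 0.0425), where 13.4% of tested genes were called higher and 16.7% lower. That call rests on single libraries: without SNS-032 replicate 1 the ACTG1 difference was 0.34 and was not called. Leaving out any 1 of 8 other libraries also ended the call, with the difference still at 0.59 without DMSO replicate 2 or 3 or any NVP-2 library and at 0.52 to 0.65 without a THAL-SNS-032 library. ACTB was at 0.49 (interval 0.03 to 0.94, limma adjusted p = 0.0952) and TUBB at 0.39 (interval -0.06 to 0.83, adjusted p = 0.167). For both, as for ACTG1, the groups did not overlap, but the share of all tested genes without overlap is not given here. The alpha-tubulins were at 0.31 to 0.33, CFL1 at 0.24, TMSB4X at 0.18 and PFN1 at 0.14, none of them called. For 8 of the 9 genes, and for 8754 of all 11381 tested genes, the interval lay within 2-fold either way. For ACTG1 its upper bound passed 2-fold. Without SNS-032 replicate 1, PFN1 and TMSB4X changed sign, to -0.12 and -0.06. With libraries centred on their medians 8 of the 9 genes were called higher with THAL-SNS-032, PFN1 being the exception (0.22, limma adjusted p = 0.0623). Of all 11381 tested genes 5822 were called higher there.

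NVP-2 left less of each transcript than either other compound on the deposited scale. All 9 were higher with THAL-SNS-032 than with NVP-2 by limma, by 0.74 (CFL1) to 1.38 (ACTG1) with a median of 0.91, where 70.0% of tested genes were called higher and 0.993% lower and the all-gene median was 0.64. No THAL-SNS-032 library overlapped an NVP-2 library for any of the 9, but the share of all tested genes without overlap is not given here. Relative to library medians 3 of the 9 calls remained, ACTG1 (0.67), TUBB (0.60) and ACTB (0.53), and the other 6 were not called. Of all 11381 tested genes 3343 were called higher there and 4327 lower. All 9 were also higher with SNS-032 than with NVP-2, by 0.50 (CFL1, limma adjusted p = 0.047) to 0.91 (TUBB, adjusted p = 0.00194) with a median of 0.64. There 52.6% of tested genes were called higher and 0.782% lower, with an all-gene median of 0.48. The groups overlapped for CFL1, TUBA1A and TUBA1B, and 3 of the 9 calls were left without SNS-032 replicate 2 or replicate 3 and 5 without NVP-2 replicate 1 or replicate 3. Relative to library medians none of the 9 was called higher with SNS-032 than with NVP-2, and CFL1 (-0.29) and TUBA1A (-0.23) were called lower. Of all 11381 tested genes 2819 were called higher there and 6706 lower.

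**Figure D3:**
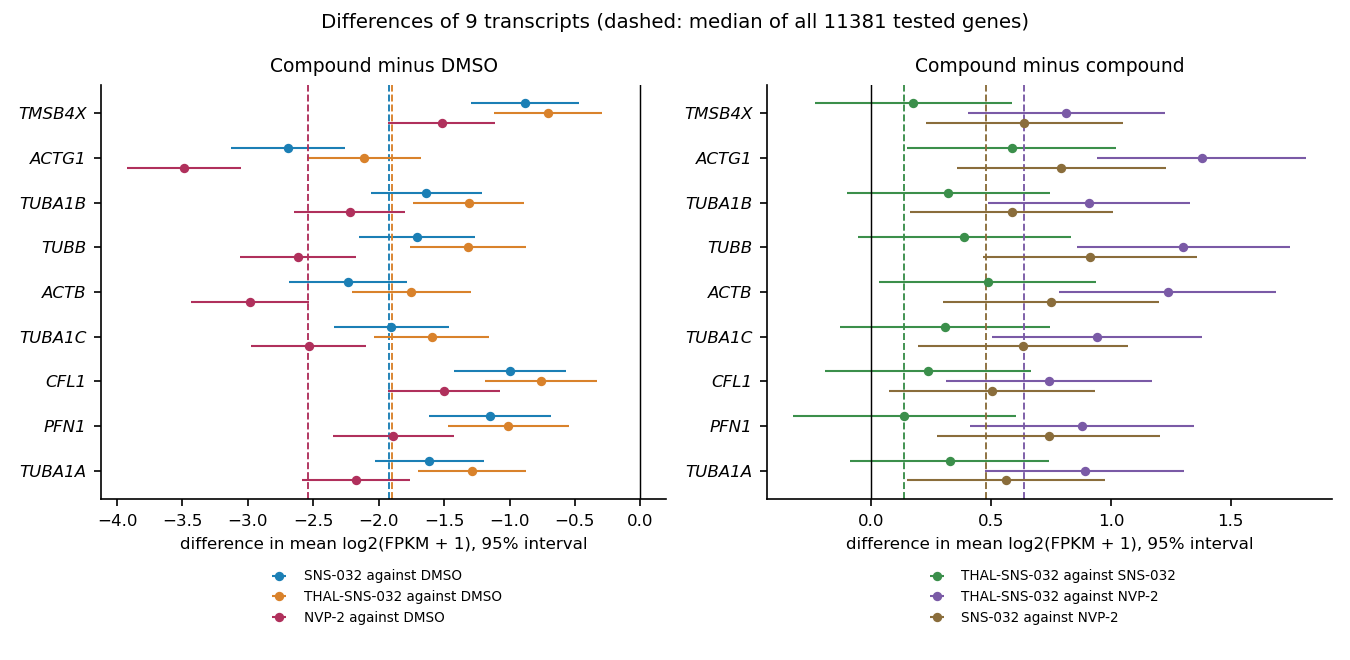
Differences in mean log2(FPKM + 1) with 95% intervals of the limma fit for the 9 genes, each compound minus DMSO (left) and compound minus compound (right); dashed lines are the medians of all tested genes. On the left every interval lies below 0 on the deposited scale, a direction that centring on library medians turns for most genes, and on the right the green intervals against SNS-032 mostly reach 0 while the violet and brown ones against NVP-2 lie above it.

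Ratios of 2 of these transcripts within a library do not change when all genes of that library are scaled by the same factor. How the spike-ins entered the deposited scale is not given, so a scaling that varied with the level of a gene could still shift them. They were set between the 9 treated and the 3 DMSO libraries in an exact two-sided permutation test, whose smallest possible p is 0.00909 (0.0127 after adjustment over 7 ratios). Of the 7 ratios 5 reached it. A ratio does so whenever all 9 treated libraries lie on the same side of all 3 DMSO libraries. The share of other gene pairs that would reach it was not computed, so the count has no background. The ratio of ACTB to ACTG1 was 0.441, 0.461 and 0.456 in DMSO, 0.612, 0.623 and 0.632 with SNS-032, 0.590, 0.576 and 0.577 with THAL-SNS-032 and 0.642, 0.635 and 0.646 with NVP-2. Every treated library was above every DMSO library, by 0.44 log2 on average (exact permutation p = 0.00909), so the gamma-actin transcript fell by more than the beta-actin transcript. ACTB made up 31.2% ± 0.50 of the actin sum in DMSO and 38.4% ± 0.38, 36.8% ± 0.32 and 39.1% ± 0.21 in the treated groups.

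The ratios of the transcripts of actin-binding proteins to those of actin moved by more. Protein levels were not measured. CFL1 was at 0.237 ± 0.0029 of the actin sum in DMSO and at 0.689 ± 0.037 with SNS-032, 0.555 ± 0.0040 for THAL-SNS-032 and 0.832 ± 0.014 for NVP-2. PFN1 went from 0.134 ± 0.0035 to 0.351 ± 0.0034, 0.264 ± 0.0012 and 0.360 ± 0.016. TMSB4X, which was just below the actin sum in DMSO at 0.943 ± 0.041, was 2.97 ± 0.16, 2.29 ± 0.020 and 3.27 ± 0.047 times the actin sum in treated cells. All 3 ratios were higher in each of the 9 treated libraries than in any DMSO library, by 1.53, 1.26 and 1.58 log2 (exact permutation p = 0.00909 each). In all 3 the THAL-SNS-032 group was nearest to DMSO, and its libraries overlapped neither those of SNS-032 nor those of NVP-2 in any of these 3 ratios. Between single groups of 3 the smallest exact permutation p is 0.1, so no pair of groups could pass (adjusted p = 0.127 over 42 tests).

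The tubulin ratios moved by less, and those among the alpha-tubulins rest on an uncertain split of reads. TUBA1A to TUBA1B was 0.258 ± 0.0086 in DMSO and 0.262 to 0.266 in the treated groups, which overlapped (0.03 log2, exact permutation p = 0.164, adjusted 0.191). TUBA1C to TUBA1B was 0.497 ± 0.020 in DMSO and 0.412 ± 0.0033, 0.408 ± 0.0034 and 0.399 ± 0.0021 in treated cells, lower in every treated library by 0.29 log2 on average (exact permutation p = 0.00909). The share of TUBA1C in the alpha-tubulin sum went from 28.3% ± 0.89 to 24.6%, 24.4% and 24.0%. TUBB to the alpha-tubulin sum was 0.369 ± 0.0082 in DMSO, 0.369 ± 0.012 with SNS-032, 0.387 ± 0.0037 for THAL-SNS-032 and 0.295 ± 0.0033 for NVP-2. The NVP-2 libraries, at 0.296, 0.292 and 0.298, lay below all 9 others, while the 9 treated libraries together did not differ from DMSO by the test (-0.09 log2, exact permutation p = 0.636).

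**Figure D4:**
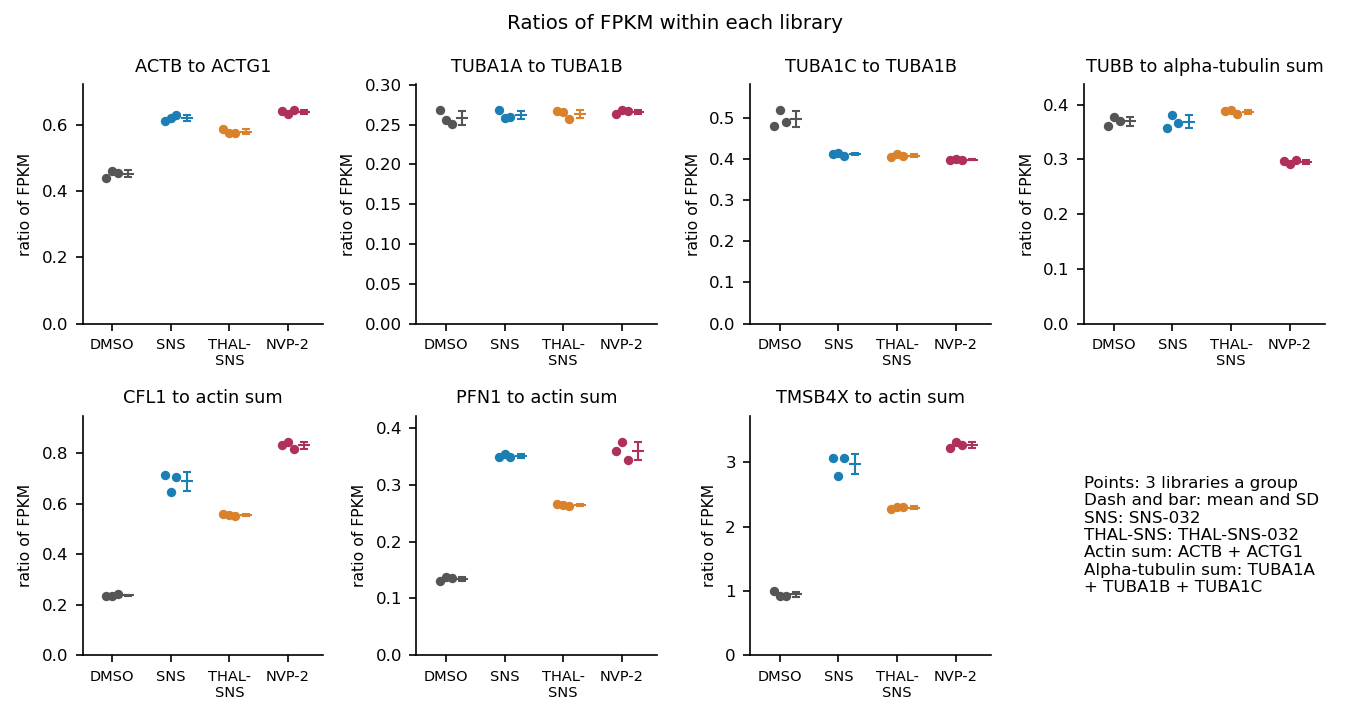
Ratios of FPKM within each library, with axes from 0; points are the 3 libraries of a group and the dash with its bar is their mean and SD. The 3 ratios to the actin sum are higher in all 9 treated libraries, with THAL-SNS-032 nearest to DMSO, and the ratio of TUBB to the alpha-tubulin sum is lowest with NVP-2 (0.295).

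Other genes of the same systems were read from 3 lists. Their counts stand against all 11381 tested genes, of which 94.6%, 94.8% and 97.1% were lower with the compounds in the order used above, and in centred libraries 5989, 6515 and 6789 were higher and 3537, 3319 and 3198 lower. Of 56 actin filament regulators 55 were tested, and all 55 were lower with each compound by limma, with medians of -1.67, -1.45 and -2.26 (all genes: -1.92, -1.90 and -2.54), near the background in their count, while relative to library medians 39, 44 and 41 were higher and 10, 8 and 10 lower. TMSB10, a second thymosin that binds actin monomers, behaved like the least affected genes: it went from 5550 ± 777 FPKM to 2758 ± 757, 3058 ± 160 and 1967 ± 246, with differences of -1.04, -0.85 and -1.49. EZR, ezrin, which links filaments to the plasma membrane, was at the other end, from 234 ± 19.5 FPKM to 24.7 ± 6.82, 32.4 ± 2.28 and 17.8 ± 1.43, with differences of -3.23, -2.81 and -3.64. CAPZA2, a subunit of the protein that caps filament ends, had the most negative difference of the list with NVP-2, -3.67, and MYL12B, a myosin light chain, the least negative with SNS-032, -0.80. Compared with NVP-2, 49 of the 55 were higher for THAL-SNS-032 (70.0% of all genes) and 34 for SNS-032 (52.6% of all genes), against 24 and 9 higher and 9 and 32 lower in centred libraries. The 34 went to 52 without SNS-032 replicate 1, to 21 without SNS-032 replicate 2 or 3 or NVP-2 replicate 3, and to 22 without NVP-2 replicate 1. Between THAL-SNS-032 and SNS-032 4 were higher and 3 lower (13.4% and 16.7% of all genes), and 40 and 6 in centred libraries. Without SNS-032 replicate 1 the 3 became 9, and the 4 became 10 without SNS-032 replicate 2 and 0 or 1 without a THAL-SNS-032 library.

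Of 17 other tubulin genes 10 were tested, and all 10 were lower with each compound by limma, near the background in their count, with medians of -2.99, -2.65 and -3.25; relative to library medians 7, 7 and 6 were lower and 2, 3 and 3 higher. TUBB4B had the most negative difference of the list with each compound, -3.79, -3.54 and -4.99. TUBG1, gamma-tubulin, which nucleates microtubules, went from 168 ± 22.2 FPKM to 19.4 ± 5.34, 26.2 ± 1.76 and 17.2 ± 1.48. TUBB2A, another beta-tubulin, was at 39.6 ± 1.26 FPKM in DMSO, with differences of -3.29, -3.05 and -3.97. The least negative were TUBB1, at 3.09 FPKM in DMSO (-1.36, -1.31 and -1.64), and TUBB4A, at 11.7 FPKM (-1.94, -1.82 and -2.23). The 4 abundant tubulins TUBA1A, TUBA1B, TUBA1C and TUBB had differences nearer 0 than the medians of their less abundant relatives with every compound. They were not nearer than each relative: TUBB1 lay nearer 0 than TUBB with every compound, and TUBB4A did with NVP-2. Of the 10, 9 were higher with THAL-SNS-032 than with NVP-2 (70.0% of all genes), and 4 were higher with SNS-032 than with NVP-2 (52.6% of all genes), which centring on library medians changed to 3 and 1 higher and 4 and 6 lower. Between THAL-SNS-032 and SNS-032 limma called none of the 10 (2 had an unadjusted p under 0.05), with differences of 0.05 to 0.45, and 9 were called higher with centred libraries. The 9 against NVP-2 became 5 without THAL-SNS-032 replicate 2 or NVP-2 replicate 1 or 3, the 4 became 9 without SNS-032 replicate 1, and 1 gene was called between THAL-SNS-032 and SNS-032 without SNS-032 replicate 2 or 3.

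Of 45 genes for tubulin folding and microtubule regulation 44 were tested, and all 44 were lower with each compound by limma, near the background in their count, with medians of -2.04, -2.03 and -2.85; relative to library medians 13, 15 and 15 were lower and 22, 25 and 21 higher. STMN1, stathmin, which binds tubulin dimers, was the most abundant, at 2992 ± 287 FPKM in DMSO and 1175 ± 319, 1433 ± 101 and 761 ± 80.0 with the compounds. DYNLL1, a dynein light chain, went from 1252 ± 128 FPKM to 143 ± 42.4, 169 ± 15.9 and 59.3 ± 7.23, with differences of -3.16, -2.88 and -4.38. The chaperonin that folds actin and tubulin includes CCT3, at 798 ± 76.1 FPKM in DMSO with differences of -2.24, -2.11 and -3.02, and CCT4, whose difference of -4.23 with NVP-2 was among the most negative. TTC5, which takes part in the autoregulated decay of tubulin mRNA, went from 30.4 ± 1.47 FPKM to 2.02 ± 0.65, 1.91 ± 0.21 and 0.921 with differences of -3.40, -3.43 and -4.03. CLASP1, which stabilises microtubule ends, had the least negative difference with THAL-SNS-032, -0.52 (SE 0.19, limma adjusted p = 0.017). Compared with NVP-2, 41 genes of this list were higher for THAL-SNS-032 (70.0% of all genes) and 31 for SNS-032 (52.6% of all genes), against 25 and 14 higher and 4 and 24 lower in centred libraries. Between THAL-SNS-032 and SNS-032 6 were higher and 4 lower (13.4% and 16.7% of all genes), and 30 and 6 in centred libraries. Without SNS-032 replicate 1 the 4 became 9, and the 6 became 10 without SNS-032 replicate 2 and 1 without THAL-SNS-032 replicate 2.

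The genes whose levels moved most like each member were read from 3830 tested genes with 50 FPKM or more in DMSO, by the root mean square difference of their 12 deviations from their own DMSO mean, which share libraries and scale. CFL1 was nearest to RPS2 (0.029 log2), a ribosomal protein, then to YBX1 and B2M. TMSB4X was nearest to SRP14 (0.033), COX7C and ATP5I, and PFN1 to ARHGDIB (0.040), a gene of the actin list, then CPNE1 and LDHB. ACTB was nearest to PTMA (0.040), prothymosin alpha, at 9190 FPKM in DMSO with differences of -2.24, -1.80 and -2.97, then to BOLA2B and PAICS. ACTG1 was nearest to PSMC3 (0.065), UNG and MCM4. For the tubulins the nearest genes were PCCB, SMS and PSMB3 for TUBA1A, PSMB3, ATP6V1G1 and RNF5P1 for TUBA1B, HNRNPL, HNRNPA1L2 and MAL for TUBA1C, and EEF2, KHDRBS1 and SRSF9 for TUBB.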

How the data were processed

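Poly(A) RNA of MOLT4 cells was sequenced in stranded libraries with ERCC spike-ins added at lysis, per the labels' protocols. The deposited values are FPKM per gene computed by the authors with HISAT and Cufflinks 2.0.0 on hg19, per the submitters' processing notes; annotation, read depth and how the spike-ins entered the scale are not given in the sources used here. From 23713 rows, 92 ERCC rows and 2 repeated symbols were removed. Genes with a mean FPKM of 1 or more were tested as log2(FPKM + 1), which understates changes of low genes, in 1 limma 3.58.1 fit with trend (R 4.3.3, 12 libraries, 4 groups, 8 residual degrees of freedom). The 6 comparisons were two-sided, Benjamini-Hochberg adjusted over all tested genes and called at an adjusted p under 0.05. Ratios were tested by exact permutation with scipy 1.17.1. The fit was checked on simulated data in which some genes changed in either direction and the rest did not. That setting lacks the fall of most genes seen here, so the check does not bear on it. In median-centred libraries the median of the tested genes was made equal.

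Named were all 9 members; per list and comparison with DMSO, genes from the 3 of highest DMSO mean and the 2 most and 2 least negative differences; and per member the 3 nearest genes of 50 FPKM or more. Members and lists were chosen with earlier results of these data known. Coding sequences are the longest reading frames of principal GENCODE 29 transcripts, and promoters are from RefSeq. Alternatives were other pseudocounts, filters, scalings, limma options, pair-only fits, a replicate block and leaving out each library.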

Additional observations from a re-analysis of the deposited data

How the results depend on the processing

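Centring libraries on their medians changed the most. With ERCC medians made equal instead, all 54 member differences kept their sign and call, and none of 60 counts moved much. ERCC medians were nearly equal already, so this option altered the values little and cannot test the deposited scale. Library medians lay -2.17, -2.26 and -2.96 log2 from DMSO (SNS-032, then THAL-SNS-032, then NVP-2), and centring each library on its median left all-gene medians of 0.25, 0.36 and 0.42. Centred, members lower than in DMSO went from 9 each to 1, 0 and 1 and members higher from 0 to 7, 8 and 7. Reversed differences with SNS-032 were CFL1 1.17, PFN1 1.02, TMSB4X 1.29, TUBA1A 0.56, TUBA1B 0.54, TUBA1C 0.27 and TUBB 0.47. With THAL-SNS-032 they were ACTB 0.51, ACTG1 0.15, CFL1 1.50, PFN1 1.25, TMSB4X 1.55, TUBA1A 0.97, TUBA1B 0.94, TUBA1C 0.66 and TUBB 0.94. With NVP-2 they were CFL1 1.46, PFN1 1.07, TMSB4X 1.44, TUBA1A 0.79, TUBA1B 0.74, TUBA1C 0.42 and TUBB 0.34. For SNS-032 against NVP-2 they were ACTB -0.039, CFL1 -0.29, PFN1 -0.049, TMSB4X -0.15, TUBA1A -0.23, TUBA1B -0.20 and TUBA1C -0.16, and members called there went from 9 higher to 0 higher and 2 lower. Members higher with THAL-SNS-032 went from 1 to 8 against SNS-032 and from 9 to 3 against NVP-2. Centring took all-gene calls from 10761 lower and 175 higher to 3537 and 5989 (SNS-032), from 10788 and 156 to 3319 and 6515 (THAL-SNS-032) and from 11050 and 51 to 3198 and 6789 (NVP-2). Between compounds it took calls higher from 1525 to 5822 (THAL-SNS-032 against SNS-032), and calls lower and higher from 113 and 7969 to 4327 and 3343 (against NVP-2) and from 89 and 5990 to 6706 and 2819 (SNS-032 against NVP-2).

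Apart from centring, all 9 members stayed lower than in DMSO under every alternative, each left-out library included. For THAL-SNS-032 against SNS-032, members higher were 0 with no filter, 0 in the fit of the pair alone, 2 with the replicate block and 0 to 2 without 1 library. There PFN1 ranged from -0.12 to 0.27 and TMSB4X from -0.059 to 0.34 without 1 library. Members higher with SNS-032 than with NVP-2 were 4 in the fit of the pair alone and 3 to 9 without 1 library. The labels give only replicate numbers, so these were not taken as pairs. Deviations of genes from their group means correlated between -0.151 and 0.17 for same-numbered libraries. The replicate block moved all-gene calls higher with THAL-SNS-032 against SNS-032 from 1525 to 2308. Without 1 library the pooled log2 ratios ranged from 0.42 to 0.45 (ACTB to ACTG1), 0.012 to 0.058 (TUBA1A to TUBA1B), -0.31 to -0.26 (TUBA1C to TUBA1B), -0.11 to -0.054 (TUBB to the alpha-tubulin sum), and to the actin sum 1.49 to 1.57 (CFL1), 1.24 to 1.30 (PFN1) and 1.55 to 1.62 (TMSB4X). The exact permutation test of 5 of these passed the threshold of 0.05 except without DMSO replicate 2 or 3 (adjusted p = 0.0509). Without DMSO replicate 1 these 5 and TUBA1A to TUBA1B passed it (adjusted p = 0.0424). Leaving out a DMSO library raises the smallest possible p, which all 5 still reached. Whether the 5 passed was then set by the number of ratios at that p, and not by their own values. All-gene calls also moved with no filter (478, 693 higher with SNS-032, THAL-SNS-032; 19550 lower with NVP-2), with a mean of 5 FPKM (61, 42 and 21 higher than in DMSO; 51 and 59 lower than with NVP-2), with a pseudocount of 5 (73 lower with THAL-SNS-032 than with NVP-2) and in pair fits (for THAL-SNS-032, 490 higher against SNS-032 and 195 lower against NVP-2). Without SNS-032 replicate 1 they were 3427 lower for THAL-SNS-032 against SNS-032 and 9302 higher with SNS-032 than with NVP-2; over the other libraries left out, calls higher for THAL-SNS-032 against SNS-032 went from 605 (without THAL-SNS-032 replicate 2) to 2762 (without SNS-032 replicate 2). For the gene lists, actin regulators higher with SNS-032 than with NVP-2 went from 34 to 19 in the pair fit and to between 21 and 52 without 1 library. For THAL-SNS-032 against SNS-032, actin regulators higher went from 4 to 2 (no filter), 0 (pair fit), 11 (replicate block) and 0 to 10 (without 1 library) and lower from 3 to 1 (pair fit) and 2 to 9. There the folding list went from 6 higher to 1 (pair fit) and 1 to 10, and from 4 lower to between 3 and 9. Other tubulins higher than with NVP-2 went from 9 to between 5 and 10 for THAL-SNS-032 and from 4 to between 4 and 9 for SNS-032 without 1 library; for THAL-SNS-032 against SNS-032, 2 were higher with the replicate block, and 1 was higher than in DMSO with no filter for either. Centring moved most list counts.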
